A study of Mus musculus with 35 samples.

Results

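Lung metastases on day 7 were represented by 6 of the 35 RNA sequencing (RNA-seq) libraries of the series, namely all libraries of that organ and day, 2 labelled Smad4 on and 4 labelled Smad4 off. All came from KC-shSmad4 cells, luciferase-transduced lines grown from mouse pancreatic ductal adenocarcinomas that carried *Ptf1a-Cre*, the *Rosa26* LSL-rtTA3-IRES-mKate2 reporter and a doxycycline (Dox)-inducible, GFP-linked short hairpin RNA (shRNA) against *Smad4* in *Col1a1*. Cre under *Ptf1a* restricts the alleles to the pancreatic lineage, so mKate2 marks tumor cells. Female *Foxn1*nu (athymic nude) hosts of 6–8 weeks, which lack T cells and keep natural killer (NK) and myeloid cells, were fed Dox and received 250000 cells by tail vein. In the Smad4 on group Dox was withdrawn 6 weeks after injection and mKate2+ cells were sorted 7 days later, whereas the Smad4 off group stayed on Dox. The labels give a mouse number per library and do not say which cell line each mouse received, so the p-values measure the spread between these samples. As labelled, the comparison asks what restoring *Smad4* changed in established lung metastases at the first time point, subject to the check of *Smad4* below.

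SMAD4 joins receptor-activated SMADs downstream of TGFβ and BMP receptors and takes part in the control of matrix, adhesion and cell-cycle genes. Pancreatic carcinomas often lose it. Several of the genes that differed here belong to another program, the response to interferons: factors activated by interferon-γ bind GAS elements, whereas complexes formed after type I interferons bind interferon-stimulated response elements (ISRE). Among the induced proteins are immunity-related GTPases and guanylate-binding proteins, which attack intracellular pathogens, and the machinery that loads peptides onto MHC class I.

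Between 11885461 and 19415320 reads were counted on genes per library. A floor of 3 counts thus lay at 0.155 to 0.252 CPM (counts scaled to the library total), counting error only. Labelled on mouse 1 had the fewest reads and 17580 genes with a count, against 21483 to 22207 genes in the other libraries. The part of this in the comparison was not tested. Libraries fell into technical sets: labelled off mouse 4 and labelled on mouse 2 had counts for the mitochondrial gene *mt-Co3*, and the other 4 had none. Pairwise correlations of log2 CPM across genes were 0.906 to 0.93 between sets. Within a set they were 0.981 to 0.99 between libraries of the same label and 0.957 to 0.969 between labels. The lowest of all was that of the 2 labelled on libraries, which lie in different sets. Carcinoma keratins and *Epcam* were abundant in every library, with the summed markers of ductal carcinoma at 7044 to 11950 CPM in the labelled off libraries and 8817 to 10990 CPM in the labelled on libraries. *Cdkn2a* was at 0 to 0.202 CPM in the 6 libraries.

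*Smad4* was measured at 83.2, 107, 78.0 and 77.9 CPM in the labelled off libraries and at 20.0 and 15.3 CPM in the labelled on libraries. The groups did not overlap, and *Smad4* mRNA was lower where the label says it was on, which goes against the label. The log2 fold change of labelled on against labelled off was −2.20 (SE 0.21) with an adjusted p = 0.0533 in edgeR's quasi-likelihood test with the technical set as a covariate, which missed the threshold, and an adjusted p = 2.52e-16 in DESeq2. Within the technical sets the log2 differences were −2.12 and −2.31. The group names of the labels were kept, and each fold change below is labelled on against labelled off. Exchanging the labels would turn the sign of every fold change.

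Of 15193 genes tested, *Irgm1*, *Igtp*, *Iigp1* and *Gli2* rose more than 2-fold in the labelled on libraries at an adjusted p under 0.05, which is 0.0263% of the genes, and 0 genes fell. Without adjustment, 559 genes were higher and 726 lower at p under 0.05 (3.68% and 4.78%), and DESeq2 with the same covariate called 79 higher and 117 lower (0.549% and 0.813% of the 14384 genes with an adjusted p). The median log2 fold change over all genes was −0.02. The 4 calls were among those of DESeq2, but edgeR without the covariate called 0 genes in either direction (366 higher and 427 lower at an unadjusted p under 0.05, 2.41% and 2.81%).

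**Figure D1:**
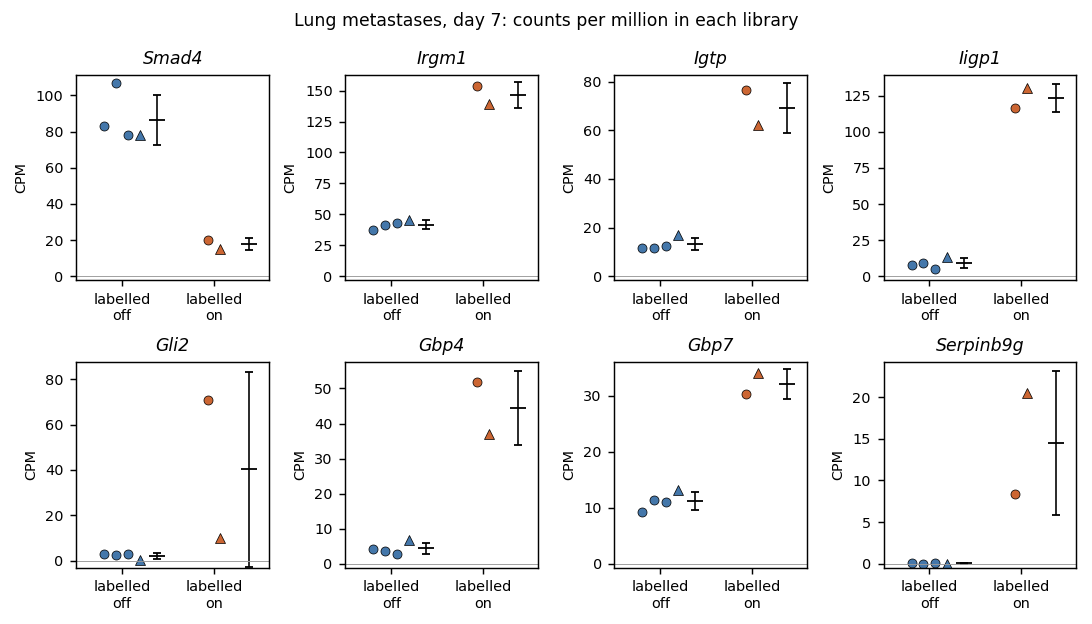
CPM of 8 genes in each library of lung metastases on day 7. Points are libraries, triangles those with *mt-Co3* counts, and the bars beside each group give the mean ± SD (n = 4 labelled off, n = 2 labelled on). In each panel the labelled on libraries lie on 1 side of all labelled off libraries: below for *Smad4* and above for the others.

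The letters upstream of the called genes *Irgm1*, *Igtp* and *Gli2*, and of *Irgm2* and *Gbp7* from the GTPase families, are given, and those of the called gene *Iigp1* are not printed here. They are shown because interferon-inducible genes often carry such elements close to the start of transcription. They are the 120 bases before the RefSeq start in GRCm38.p6, read 5′ to 3′ on the strand of the gene, with matches to GAS (TTCNNNGAA) or ISRE (GAAANNGAAA, on either strand) in capitals. *Gli2* is shown as a called gene with neither.
Irgm1 (chr11:48871421-48871540, minus strand): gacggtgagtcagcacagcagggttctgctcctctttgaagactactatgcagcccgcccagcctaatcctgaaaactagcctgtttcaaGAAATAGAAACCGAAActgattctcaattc
Igtp (chr11:58199436-58199555, plus strand): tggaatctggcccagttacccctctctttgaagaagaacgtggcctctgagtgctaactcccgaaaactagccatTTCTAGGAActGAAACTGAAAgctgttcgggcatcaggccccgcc
Irgm2 (chr11:58214857-58214976, plus strand): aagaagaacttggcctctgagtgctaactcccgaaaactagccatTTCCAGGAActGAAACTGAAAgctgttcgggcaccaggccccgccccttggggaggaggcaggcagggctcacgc
Gbp7 (chr3:142530216-142530335, plus strand): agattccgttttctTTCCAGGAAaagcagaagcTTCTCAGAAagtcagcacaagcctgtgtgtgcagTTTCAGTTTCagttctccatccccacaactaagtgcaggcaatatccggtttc
Gli2 (chr1:119053620-119053739, minus strand): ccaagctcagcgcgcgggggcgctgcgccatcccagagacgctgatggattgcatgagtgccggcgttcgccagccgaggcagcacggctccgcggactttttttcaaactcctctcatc

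In *Irgm1*, overlapping ISRE matches began 30 and 24 bases before the start. *Igtp* held a GAS match at 45 and an ISRE match at 34 bases, and the *Gbp7* promoter held GAS matches at 106 and 87 bases and an ISRE match on the other strand at 53 bases. Across the 250 bases before the start, 11.1% of 27025 genes in the promoter table held either motif. Of the immunity-related GTPases 6 of 11 with a listed promoter did, as did 5 of 5 guanylate-binding proteins. Such matches describe these letters only. Either motif was held in 4 of 8 listed promoters of the 12 higher genes named in the text and in 1 of 8 of the 12 lower genes. These sets and the families were picked with the values of these libraries seen.

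*Irgm1*, an immunity-related GTPase of autophagy and pathogen control (chr11:48861968-48871683), stood at 37.0, 41.6, 43.3 and 45.1 CPM in the labelled off libraries and at 154 and 139 CPM in the labelled on libraries. The labelled off libraries were close to each other and well below the labelled on libraries. It rose 3.58-fold (log2 fold change 1.84, SE 0.13, adjusted p = 0.0221 by edgeR). *Igtp* (Irgm3, chr11:58199556-58207591) stood at 11.8, 11.8, 12.4 and 16.9 CPM against 76.5 and 62.1 CPM and rose 5.28-fold (log2 2.40, SE 0.18, adjusted p = 0.0227 by edgeR). The annotation of the files overlaps *Igtp* with *Irgm2* on the same strand, so that reads in the shared part cannot be assigned to either.

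*Iigp1* (Irga6, on chromosome 18), the GTPase that coats parasite vacuoles, had the largest of these changes: 7.87, 9.53, 5.17 and 13.7 CPM in the labelled off libraries against 117 and 130 CPM, 13.1-fold (log2 3.71, SE 0.28, adjusted p = 0.0386 by edgeR). Both labelled on libraries lay far above every labelled off library, in both technical sets (log2 differences of 3.91 and 3.21). These calls rested on few libraries. Leaving out labelled off mouse 1, 2 or 3 raised the adjusted p of *Irgm1* to 0.0962, 0.140 and 0.156 and that of *Igtp* to 0.107, 0.175 and 0.156, and leaving out labelled off mouse 1 or 2 raised that of *Iigp1* to 0.184 and 0.140. In these fits the log2 fold changes were 1.79 to 1.87, 2.36 to 2.39 and 3.69 to 3.83.

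*Gli2*, a transcription factor of hedgehog signalling (chr1:118834132-119053619), was at 3.18, 2.68, 3.16 and 0.391 CPM in the labelled off libraries and at 70.7 and 9.90 CPM in the labelled on libraries. It rose (log2 4.61, SE 0.17, adjusted p = 0.000618 by edgeR), although the labelled on libraries lay far from each other, and in both groups the library with *mt-Co3* counts was the lowest. The call held when any 1 library was left out and was lost without the covariate (adjusted p = 0.560). Of the other hedgehog genes, *Gli1* was at a log2 fold change of 0.39, the receptor *Ptch1* at 0.31 and the antagonist *Hhip* at 1.996, none past the threshold by edgeR, with adjusted p = 0.863, 0.620 and 0.489.

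The remaining genes of the naming rule did not pass the adjusted threshold although their groups did not overlap, as was true of 3.32% of all genes in the higher and 7.31% in the lower direction. The guanylate-binding protein *Gbp4* was at 4.12, 3.55, 2.89 and 6.77 CPM against 51.9 and 37.0 CPM (log2 3.38, SE 0.32, adjusted p = 0.0557 by edgeR). For *Gbp6* and *Gbp7* the log2 fold changes were 2.65 and 1.49. Of the 12 higher genes named by the rule, 7 belong to the interferon and antigen presentation lists, with *Irgm1*, *Igtp* and *Iigp1* past the threshold. These lists hold 86 of the 15193 genes tested. They were chosen with values of these libraries known, so the 7 are a description and no separate result.

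The other higher genes were of varied function. *Slc29a3*, a lysosomal nucleoside transporter, was at 28.3, 16.9, 22.6 and 14.8 CPM against 87.5 and 39.6 CPM, and the glutathione transferase *Gstm5* at 37.4, 28.1, 39.2 and 20.4 CPM against 95.7 and 43.2 CPM (log2 1.79 and 1.35). *Sox13*, a SOX transcription factor, was at 31.2, 34.2, 36.1 and 30.9 CPM against 67.8 and 73.4 CPM (log2 1.14, SE 0.13). The serpin *Serpinb9g* had 2, 0, 2 and 0 counts in the labelled off libraries and 99 and 351 counts in the labelled on libraries, and as a member of a family of close copies its counts are uncertain. DESeq2 with the covariate called each of the 12 higher genes, on the same 6 libraries by which they were picked, so this is not separate support.

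The interferon families were then examined as lists assembled after their leading members were seen, so their counts are descriptive. Of 14 immunity-related GTPases tested, 10 were higher at an unadjusted p under 0.05 and 1 was lower, with a median log2 fold change of 2.05. Over all genes tested, 3.68% were higher and 4.78% lower at that p. *Irgm2* was at 22.5, 16.4, 21 and 18.7 CPM against 62.9 and 38.7 CPM, and the T-cell-specific GTPases *Tgtp1* and *Tgtp2*, near-identical copies whose reads may be split, had log2 fold changes of 3.24 and 3.76. The family was not uniform: *Ifi47* was at 48.0 CPM in 1 labelled on library and at 18.7 CPM in the other, within the 16.2 to 23.2 CPM of the labelled off libraries, and *Irgq* had a log2 fold change of −0.13. The lower gene was the predicted *9930111J21Rik1*, at 3.61 to 4.48 CPM against 2.27 and 2.70 CPM.

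Among 10 guanylate-binding proteins tested, 8 were higher at an unadjusted p under 0.05 and did not overlap between groups, with a median of 2.37. Over all genes tested, 3.68% were higher at that p and 3.32% were higher without overlap. *Gbp2* was at 29.9, 40.9, 19.8 and 42.6 CPM against 180 and 116 CPM, and *Gbp3* at 4.85, 8.09, 4.77 and 7.36 CPM against 49.2 and 22.4 CPM. *Gbp8* and *Gbp9* overlapped, since labelled on mouse 2 had 1.88 and 15.4 CPM of them, below the labelled off libraries. Close copies within this family, such as *Gbp6* and *Gbp10*, may share reads.

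Of the receptors and transducers of interferon-γ, the receptor subunits *Ifngr1* and *Ifngr2* and the kinases *Jak1* and *Jak2* had log2 fold changes of 0.02 to 0.20, and *Batf2*, *Nlrc5* and *Socs1* of 2.29, 1.78 and 1.00. *Batf2*, an interferon-induced AP-1 family factor, was at 2.45, 1.75, 2.89 and 2.73 CPM against 10.3 and 14.6 CPM. *Irf1* was at 84.2, 131, 81.4 and 238 CPM against 271 and 234 CPM, and its difference lay within the set without *mt-Co3* counts (1.49) and not in the other (−0.02). *Irf8*, by contrast, reached 41.7 CPM in labelled on mouse 2 and stood at 5.38 CPM in labelled on mouse 1, against 1.89 to 3.71 CPM.

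The chemokines *Cxcl9* and *Cxcl10*, ligands of CXCR3, were at 1.48 to 12.8 CPM and 4.38 to 15.3 CPM in the labelled off libraries. They were at 127 and 116 CPM and at 67.0 and 50.0 CPM in the labelled on libraries, log2 fold changes of 4.30 (SE 0.58) and 2.46 (SE 0.49). *Cd274*, which encodes the checkpoint ligand PD-L1, was at 11.3, 12.8, 11.6 and 4.62 CPM against 28.9 and 12.8 CPM, a difference of 1.25 and 1.38 within the sets. *Il12rb1*, a subunit of the receptors of IL-12 and IL-23, was at 0.574, 0.155, 0.269 and 0.651 CPM against 3.70 and 7.50 CPM.

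Of 12 antigen presentation genes of the listed pathway, 10 were higher at an unadjusted p under 0.05 and 0 lower, with a median log2 fold change of 1.03. The same cut took in 3.68% of all tested genes as higher and 4.78% as lower. By edgeR 0 of the 12 passed the adjusted threshold. *B2m*, the light chain of MHC class I, was at 417, 475, 432 and 579 CPM against 986 and 1086 CPM (log2 1.095, SE 0.15, adjusted p = 0.0999 by edgeR). Heavy chains and peptide loading depended on the set. *H2-K1* was at 409, 488, 422 and 1214 CPM against 1496 and 1333 CPM, a log2 difference of 1.77 without and 0.14 with *mt-Co3* counts, and the transporter *Tap1* had differences of 2.02 and 0.70. For MHC class II the sets went opposite ways: the invariant chain *Cd74* was at 89.6, 97.0, 95.9 and 148 CPM against 669 and 52.5 CPM, log2 differences of 2.82 and −1.48, and its regulator *Ciita* was at 14.6 CPM in labelled on mouse 1 and 1.64 CPM in mouse 2. Between the same mice the summed alveolar type 2 markers were 568.3 and 196 CPM (labelled off 240 to 627 CPM) and macrophage and monocyte markers 500 and 186 CPM. Cells of both types express class II genes, and their part in these values was not tested.

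The list of interferon-stimulated genes also lay above the background. Of 20 tested, 13 were higher at an unadjusted p under 0.05, 0 were lower, 15 were higher without overlap and the median log2 fold change was 1.06. Over all genes, 3.68% were higher and 4.78% lower at that p, and 3.32% were higher without overlap. *Isg15*, a ubiquitin-like modifier, was at 4.02, 9.89, 9 and 7.55 CPM against 15.7 and 26.0 CPM, and *Ifit3* at 3.86 to 10.1 CPM against 12.1 and 30.2 CPM. Across all interferon and antigen presentation lists, at an unadjusted p under 0.05, 54 of 86 genes tested were higher and 1 was lower. In both technical sets 63 of them were above 0, as were 18.1% of all genes. DESeq2 with the covariate called 32 of them higher, as it did 0.549% of the genes with an adjusted p.

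**Figure D2:**
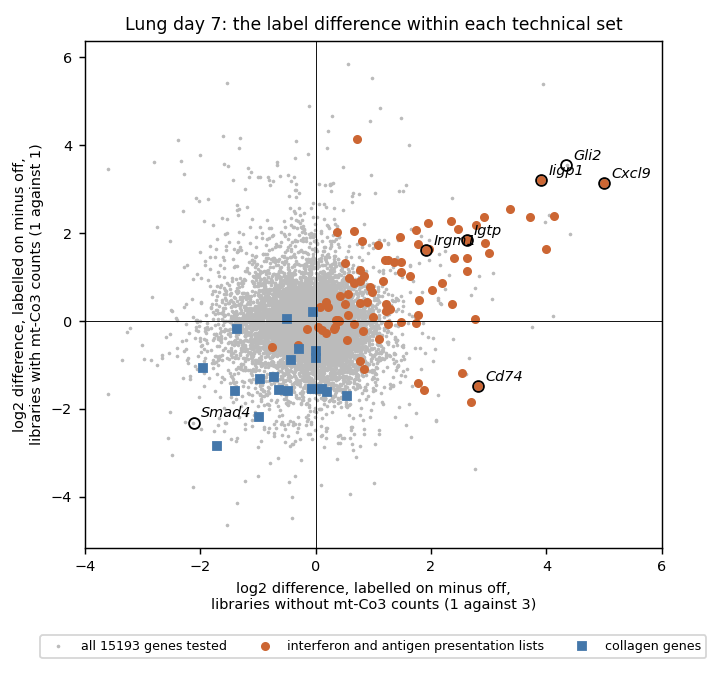
Difference of mean log2 CPM between labelled on and labelled off libraries within the set without *mt-Co3* counts (x axis, 1 against 3 libraries) and the set with them (y axis, 1 against 1), for 15193 genes. Most interferon and antigen presentation genes lie to the upper right, *Cd74* lies to the lower right, and collagen genes lie mainly below 0 on the y axis.

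Interferon transcripts themselves were near the floor. *Ifng* had 9 counts in labelled on mouse 1, 2 counts in labelled off mouse 2 and 0 in the other 4 libraries, and *Ifnb1* had 6 counts in labelled on mouse 1 and 0 or 1 in the others. The 12 B, T and NK cell markers summed to 2.9 to 10.9 CPM in labelled off and 2.6 and 6.2 CPM in labelled on libraries. *Cd3e* and *Cd8a* were at 0 in all 6. The hosts lack T cells and the sort was for mKate2+ cells, so low values say little about other cells of the lungs. The part of the design in them was not tested. These values cannot show which cells in the lungs made interferon, and its source was not tested. Macrophage and monocyte markers summed to 327 to 628 CPM in labelled off and to 500 and 186 CPM in labelled on libraries, overlapping between the groups.

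**Figure D3:**
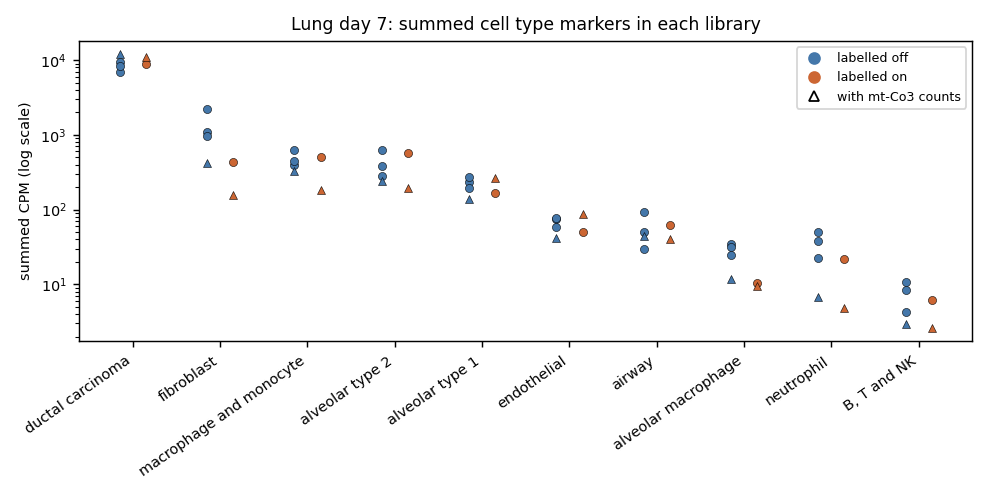
Summed CPM (log scale) of marker lists in each of the 6 libraries, with triangles for libraries with *mt-Co3* counts. Ductal carcinoma markers exceed every other list, and the fibroblast sum reaches 437 CPM in labelled on against 2248 CPM in labelled off libraries.

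Collagen and TGFβ target genes were mostly at negative fold changes, of which 0 passed the threshold by edgeR. DESeq2 with the covariate called 4 collagen and 5 TGFβ target genes lower, as it did 0.813% of the genes with an adjusted p. Of 19 collagen genes, 18 had negative and 1 a positive fold change. At an unadjusted p under 0.05, 9 were lower, as were 4.78% of all genes. The median log2 fold change of the collagen genes was −0.60 against −0.02 for all genes. *Col1a1* was at 364, 262, 170 and 122 CPM in the labelled off libraries against 77.1 and 16.6 CPM (log2 −2.16, SE 0.41, adjusted p = 0.261 by edgeR), and *Col5a2* at 67.2, 55.3, 38.1 and 13.7 CPM against 26.2 and 2.64 CPM, which overlapped. Fibroblast markers moved with them: 7 of 10 were lower at an unadjusted p under 0.05, and their sum was 2248, 1078, 969 and 422 CPM against 437 and 156 CPM. Their part in the collagen values was not tested, and in bulk samples fewer cells of a type and less RNA per cell cannot be told apart.

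Of 30 TGFβ target genes, 7 were lower and 1 higher at an unadjusted p under 0.05 (4.78% and 3.68% over all genes), with a median of −0.32. The BMP and TGFβ target *Id1* was at 116, 127, 165 and 130 CPM against 73.9 and 40.9 CPM (log2 −1.14, SE 0.23), and the metalloprotease *Adam12* at 46.0, 39.1, 27.1 and 27.9 CPM against 16 and 9.61 CPM (log2 −1.32, SE 0.26). *Id1* and *Adam12* did not overlap between groups. The receptor SMADs and regulators had a median of 0.05, with *Smad2*, *Smad3* and *Smad7* at 0.03, 0.09 and −0.06.

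The study names 7 genes of a fibrogenic SMAD4 program that it cites from earlier work. Of these, *Ccbe1* was at 21.4, 28.7, 13.2 and 5.99 CPM against 6.06 and 1.47 CPM (log2 −1.85, SE 0.40). *Wisp1* was at 36.1, 35.5, 18.5 and 17.5 CPM against 15.2 and 2.87 CPM (log2 −1.51, SE 0.48). The cytokine *Il11* was at 12, 16.4, 5.91 and 17.3 CPM against 14.1 and 13.3 CPM, inside the range of the labelled off libraries. *Has2*, *Col6a1* and *Itga5* had log2 fold changes of −0.04, −0.29 and −0.32. Thus 2 of the 7 genes were lower at an unadjusted p under 0.05, as were 4.78% of all genes. A list chosen on these samples is not independent evidence of its direction. *Klf4*, *Klf5*, *Klf6*, *Runx1* and *Runx2* had log2 fold changes between −0.09 and 0.25, *Runx3* one of 0.77, and the cell-cycle inhibitor *Cdkn1c* was at 7.26 to 11.5 CPM against 2.36 and 13.7 CPM.

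The lower genes with the smallest p included secreted and surface proteins. By edgeR 0 of the 12, *Smad4* among them, passed the adjusted threshold, whereas DESeq2 with the covariate called 11 on the same libraries. *Fbln5*, an elastic-fibre protein, was at 22.4, 17.2, 16.5 and 6.12 CPM against 4.46 and 1.88 CPM (log2 −1.89, SE 0.25, adjusted p = 0.0999 by edgeR). *Ctse*, a gastric aspartic protease, was at 149, 56.9, 105 and 59.96 CPM against 15.9 and 9.03 CPM, and the intestinal phosphatase *Alpi* at 43.6, 51.5, 85.0 and 15.4 CPM against 14.1 and 2.40 CPM. The chymases *Mcpt2* and *Mcpt4*, known from mast cells, had log2 fold changes of −2.87 (SE 0.45) and −3.58 (SE 0.54). *Smoc1*, *Ephb2*, *Amer2*, *Cda*, *Rflnb* and *Mgst3* had log2 fold changes of −4.42, −1.66, −1.78, −1.33, −1.14 and −0.73.

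Of 25 S-phase genes, 3 were lower and 0 higher at an unadjusted p under 0.05 (median −0.11). Of 25 G2 and mitosis genes, 2 were lower and 0 higher (median −0.12). Over all genes, 4.78% were lower and 3.68% higher. Groups did not overlap, with labelled on lower, for 4 S-phase and 5 G2 and mitosis genes, as for 7.31% of all genes. The median log2 differences were 0.05 and 0.01 in the set without *mt-Co3* counts and −0.44 and −0.385 in the other. Of 18 p53 target genes, 3 were higher and 0 lower, with a median of 0.28. *Btg2*, an antiproliferative factor, was at 455 to 661 CPM against 857 and 632 CPM. Of 21 epithelial identity genes tested 0 reached an unadjusted p under 0.05 in either direction.

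**Figure D4:**
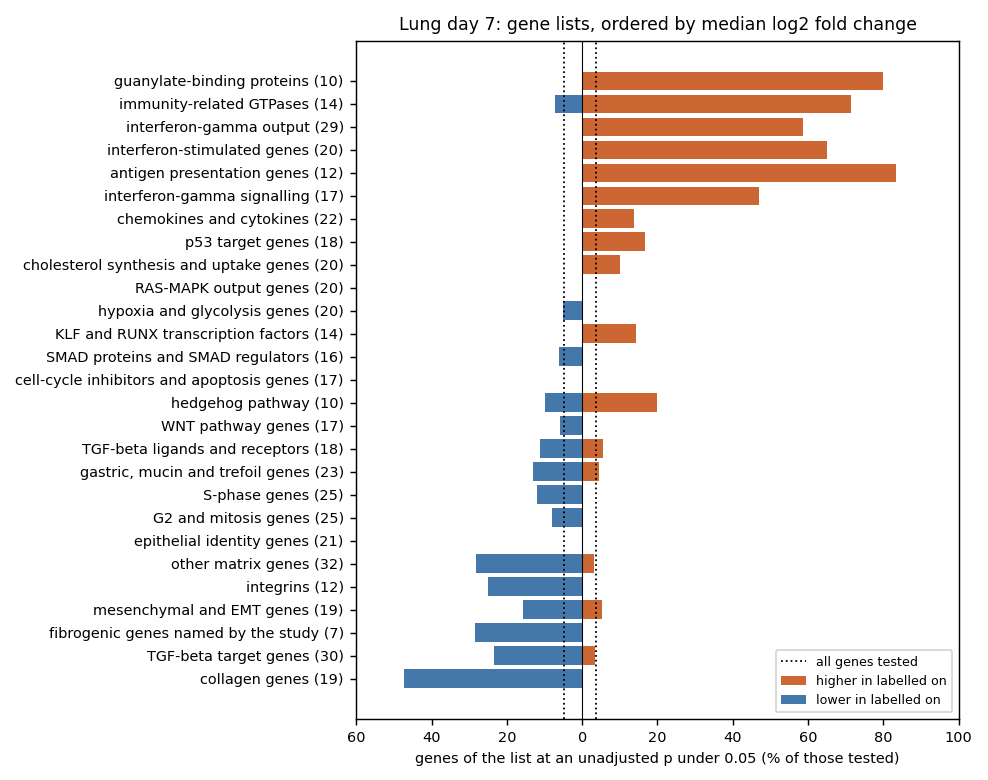
Share of the tested genes of each pathway list (number in parentheses) at an unadjusted p under 0.05, to the right where higher and to the left where lower in labelled on libraries. The dotted lines give the shares over all 15193 genes, 3.68% and 4.78%. Cell type markers are not drawn. Of the lists drawn, interferon and antigen presentation lists reach furthest to the right and collagen genes furthest to the left.

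The response was next compared with that of lung metastases on day 14, which had 4 libraries in each group and its own controls. There the same 4 genes had log2 fold changes of 0.40 (SE 0.34) for *Irgm1*, 0.34 (SE 0.45) for *Igtp*, 0.34 (SE 0.95) for *Iigp1* and 5.50 (SE 0.32) for *Gli2*, and only *Gli2* of them rose (adjusted p = 0.000156 by edgeR), as did 0.644% of all genes tested on that day. *Irgm1* was at 32.6, 90.3, 43.5 and 25.0 CPM in the labelled off libraries of day 14 and at 75.1, 64.5, 53.3 and 60.4 CPM in the labelled on libraries. The groups overlapped because labelled off mouse 2 of day 14 was high, as it was for *Iigp1*, at 44.2 CPM against 2.38 to 16.8 CPM in the other 3. The test of the difference between the days did not pass for any gene (adjusted p = 0.395 for the first 3 and 0.582 for *Gli2* by edgeR's interaction term), with 927 genes above and 562 below 0 at an unadjusted p under 0.05 (5.72% and 3.46%).

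The families of GTPases were listed because members were high on day 7, so a lower value on day 14 follows in part from that choice. Their median log2 fold changes on day 14 were 0.34 for the immunity-related GTPases and 0.16 for the guanylate-binding proteins. The 20 interferon-stimulated genes had a median log2 fold change of 0.58 on day 14, with 13 higher at an unadjusted p under 0.05, as were 9.42% of all genes on that day. In contrast, *Slc29a3* and *Gstm5* rose on day 14 by 1.84 and 1.45 on the log2 scale (adjusted p = 0.000792 and 0.0069 by edgeR), close to their day 7 values. *Ctse* and *Cda* fell on day 14, by 2.24 and 1.01 on the log2 scale (adjusted p = 0.043 and 0.0456 by edgeR), as did 0.217% of all genes.

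Genes of cholesterol synthesis and uptake had medians on either side of 0 on the 2 days. On day 7, 17 of 20 had positive fold changes with a median of 0.23, and on day 14 the median was −0.48, with 14 lower at an unadjusted p under 0.05, as were 8.3% of all genes. The difference itself was below 0 at an unadjusted p under 0.05 in 14 of 20, as it was in 3.46% of all genes. *Sqle*, which encodes squalene epoxidase, had log2 fold changes of 0.08 (SE 0.11) on day 7 and −0.65 on day 14.

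**Figure D5:**
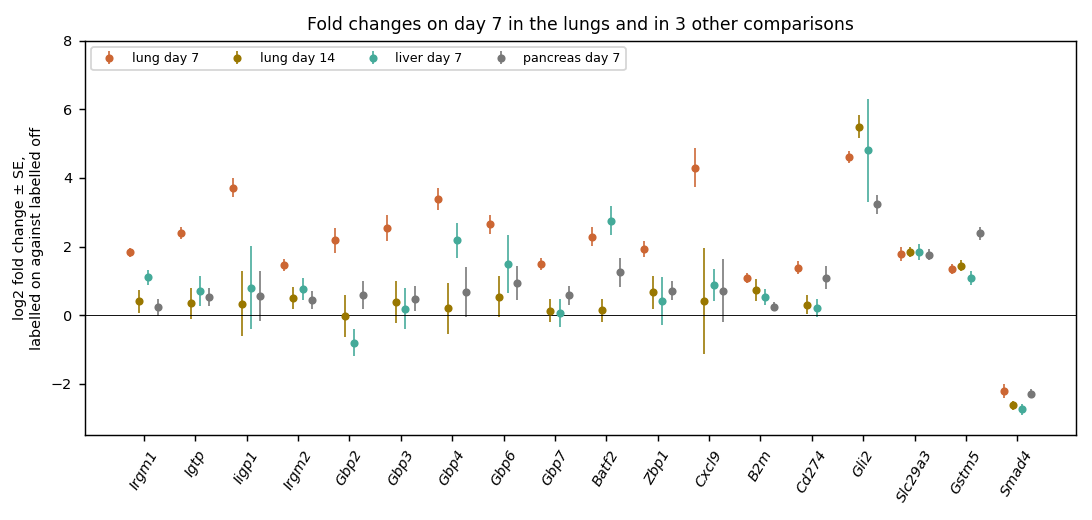
Log2 fold changes ± SE of labelled on against labelled off libraries for 18 genes in lung metastases on day 7 and day 14, liver metastases on day 7 and primary tumors of the pancreas on day 7, each from its own libraries. The interferon-related genes drawn, from *Irgm1* to *Cd274*, were picked from the lungs on day 7 and have their highest value there except *Batf2*, whereas *Gli2*, *Slc29a3* and *Gstm5* are above 0 and *Smad4* below 0 in all 4.

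On day 7 in the other organs, *Irgm1* had a log2 fold change of 1.11 in liver metastases and 0.23 in primary tumors, and *Iigp1* of 0.80 and 0.55. The responses of *Irgm1*, *Igtp* and *Iigp1* were not shown to differ from those in the liver (adjusted p = 0.436, 0.141 and 0.132 by edgeR's interaction term) or the pancreas (adjusted p = 0.0869, 0.0815 and 0.144). Over whole lists the liver was not lower throughout: the interferon-stimulated genes had medians of 1.13 (liver) and 1.06 (lungs), and antigen presentation genes of 0.97 and 1.03. For *Il12rb1* the difference from the liver passed: its response was 3.51 in the lungs and −3.15 in the liver, a difference of liver minus lung of −6.59 (adjusted p = 0.0213 by edgeR). *Gbp2* passed as well, at 2.18 against −0.80 (adjusted p = 0.0350 by edgeR).

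In all, the response in the liver minus that in the lungs passed for 514 genes above and 261 below 0, of 16369 tested (3.14% and 1.59%). The labelled off group of the liver had 2 libraries, and 1 of them, sequenced as paired ends, stood apart, with fibroblast markers at 30850 CPM against 330.7 CPM and ductal carcinoma markers at 3465 CPM against 12640 CPM. Without it 932 genes passed, 587 of them among the 775, and the difference was −6.54 for *Il12rb1* and −2.63 for *Gbp2* (adjusted p = 0.0127 and 0.0439 by edgeR). With all libraries, among those above 0 were *Mcpt4* (6.24), *Ptpru* (6.54), *Aadac* (5.70) and *Pof1b* (4.62), and among those below 0 *Cd244* (−4.07) and *Gzme* (−3.68). Except for *Mcpt4*, their lung fold changes on day 7 were between −1.38 and −0.24 on the log2 scale. Against the pancreas, 5 genes lay above and 3 below 0, of 15944 (0.0314% and 0.0188%). They included the mucin *Muc13*, the complement gene *Hc*, *Nid2* and *Hsd11b1* above 0, and *Tubb3*, *Fam171a1* and *Chordc1* below. *Muc13* was at 269, 295, 385 and 129 CPM against 462 and 291 CPM in the lungs on day 7, a log2 fold change of 0.84 there, of 3.86 in the liver and of 3.29 in the pancreas.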

How the data were processed

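RNA was measured in mKate2+ cells sorted from lung metastases. Libraries were poly(A)-selected with a stranded TruSeq kit (15 PCR cycles) and read as 75 bp single ends. The authors trimmed reads with Trimmomatic 0.36, aligned them to GRCm38 with STAR 2.5.3a and deposited raw counts per gene made with featureCounts 1.6.3, after FastQC 0.11.5, and versions are those of the submitters' processing notes. The strand setting of the counting is not given in the sources used here, so antisense and overlapping genes are uncertain. The deposited table holds raw counts of 53465 genes. Every library matched 1 column, and 0 pairs of columns were identical.

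The 6 libraries were fitted with the technical set (*mt-Co3* counts or none) as a covariate in edgeR 4.0.16 (R 4.3.3) after filterByExpr (minimum count 10, minimum total 15) and TMM scaling, by the robust quasi-likelihood test. Calls needed more than a 2-fold change together with an adjusted p (Benjamini-Hochberg) under 0.05, the thresholds of the study. The biological coefficient of variation was 0.232 with the covariate and 0.401 without it, and 3 residual degrees of freedom remained. CPM are counts divided by library totals, log2 differences within sets used a pseudocount of 0.5 CPM, and the mean ± SD is over libraries. Responses between days and organs were compared by interaction terms. Where a symbol had several identifiers, that with most counts was listed. Promoters were matched by symbol to RefSeq (GRCm38.p6).

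Named genes were *Smad4*, up to 12 genes per direction (called genes first, then by lowest unadjusted p) among those with a mean of at least 1 CPM, groups that did not overlap and a symbol of no predicted gene, called members or the lowest p of each list, genes that the text of the study names, and the leading interaction calls. The members, lists and rules were chosen with earlier results of these data known. The interferon family lists were added after seeing values. Alternatives were DESeq2 1.42.0 with and without the covariate, its size factors in edgeR, other filters, no covariate, a single fit of 12 groups, no fold threshold, leaving out mitochondrial genes or each library, a replicate block and, chosen after seeing the data, only the libraries without *mt-Co3* counts. Data of this comparison were simulated with 200 of 15193 genes changed 4-fold. By edgeR with the covariate 75.5% were recovered with 14 false calls, and by DESeq2 with it 81.5% with 34. The simulated counts followed the covariate model with equal changes in both sets, so these rates need not hold for the real libraries. Python 3.11.15 and matplotlib 3.10.9 were used for tables and figures. Results of some genes are not reported here.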

Additional observations from a re-analysis of the deposited data

Results flagged for a closer look

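*Igtp* in the labelled off libraries of lung metastases on day 7 had a value of 16.9 CPM in mouse 4, set apart from 11.8, 11.8 and 12.4 CPM in the other 3. That library has *mt-Co3* counts and the other 3 have none. Of 26 groups of values examined, this was the only one with such a library. Chance flags about 1 in 20 groups, so 1 flag is near what chance gives.

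The response to the label differed between liver and lung metastases on day 7 for 775 genes and between primary tumors and lung metastases on day 7 for 8 genes, by edgeR's interaction term. On the liver side 1 library was labelled paired-end, and 932 genes passed without it.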

How the results depend on the processing

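The covariate, the tool and single libraries set the number of calls. The 4 higher and 0 lower genes became 0 and 0 without the covariate, 79 and 117 with DESeq2 and the covariate, 58 and 54 with DESeq2 without it, 42 and 60 with no filter, 20 and 6 in the fit of 12 groups and 69 and 10 with only the libraries without *mt-Co3* counts, and 2 higher with at least 10 counts in every library. Leaving out each library gave 1 to 153 higher and 0 to 235 lower genes, the most without labelled on mouse 1 (153 and 235), then 74 and 12 without labelled on mouse 2 and 74 and 9 without labelled off mouse 4. Genes of the interferon and antigen presentation lists, chosen with these values known, were 86 of the 15193 tested in the main fit. They were a smaller share of the genes called higher without labelled on mouse 1 than without labelled on mouse 2. Each of these fits has 1 labelled on library, so no more is read from the shares. *Smad4* passed with DESeq2 (log2 fold changes of −2.20 with and −2.21 without the covariate), with no filter (−2.20) and in the fit of 12 groups (−2.23), and leaving out a library gave −2.32 to −2.09, past the threshold without labelled on mouse 1 or 2 (adjusted p = 0.0241 and 0.0495 by edgeR).

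The mouse number as a replicate block gave 0 higher and 0 lower genes, and the numbers were shared by 2 pairs only, with correlations of deviations of 0.395 and −0.319, so samples share a number and no more. For the differences of response, the block gave 6 genes between days and 0 against either organ. Without the covariate, 305 genes differed from the liver and 0 from the pancreas, and DESeq2 gave 44 between days, 2074 against the liver and 390 against the pancreas. Leaving out each library of day 7 gave 0 to 78 genes between days, the 78 without labelled on mouse 1 and 2 without labelled off mouse 2. Lung metastases on day 14 had 127 called genes with the covariate and 4 without it. Over the 127 other named genes and 2274 values, 18 lost a call, 162 gained a call and 0 were counted as reversed. That count does not cover every change of sign: *Cdkn1c*, which was not called, differed in opposite directions in the technical sets. The cause of the changes in calls was not tested. Of the 4 called genes, 3 were also called in the fit of 12 groups, and *Iigp1* was not (adjusted p = 0.0719 by edgeR), nor with at least 10 counts in every library (0.0537). Each set holds 1 labelled on library, so a lone library is assumed to vary like the others.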
